A study of Mus musculus with 27 samples.

Results

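The comparison described here is the effect of etomoxir on the liver transcriptome 48 h after partial hepatectomy. By the sample labels it sets 4 libraries of mice that were resected and given etomoxir (PHx48_ETO) against 7 libraries of mice that were resected without it (PHx48), 11 of the 27 libraries of the series. All mice were wild-type, of strain C57/BL6J, and whole liver tissue was taken 48 h after resection of 70% of the liver. Etomoxir was given intraperitoneally at 12.5 mg/kg 4 h before the resection, with an extra dose 24 h after it. The other libraries were 5 of sham-operated mice, whose time after the operation is not given, 7 taken 24 h after resection (PHx24) and 4 taken 24 h after resection with etomoxir (PHx24_ETO). They entered the same fit and serve below for a test of the difference between the times and for side-by-side levels. Whether untreated mice received vehicle is not in the labels, nor is it stated that libraries are from different mice. The p-values therefore reflect only how these libraries vary, which may be technical. Tissue was sequenced in bulk, so that fewer cells of a type and less RNA per cell cannot be told apart.

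Etomoxir is an irreversible inhibitor of carnitine palmitoyltransferase 1, the outer mitochondrial membrane enzyme that couples long-chain acyl groups to carnitine and so controls their entry into mitochondria for beta-oxidation. Long-chain fatty acids that are not taken into mitochondria can be omega-hydroxylated by microsomal cytochromes P450 of the Cyp4a family, shortened in peroxisomes or stored as triglyceride. In hepatocytes the nuclear receptor PPARA, which binds fatty acids and their derivatives, switches on genes of all these oxidation routes, while SREBP-1c and other factors drive the genes of fatty acid synthesis. After partial hepatectomy the remaining hepatocytes accumulate fat for a time and pass through DNA replication and mitosis.

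Total counts in the 11 libraries ranged from 15165292 to 18104360. Levels are given below as FPKM (read counts divided by gene length and library size), a scale that allows genes to be compared per length. Albumin took 5.06% to 7.22% of all counts in PHx48 and 6.28% to 8.10% in PHx48_ETO, and the summed FPKM of 14 hepatocyte markers ran from 30925 to 44313 and from 39997 to 52026, so that the tissue label matched its markers. Of 15 lists of cell type markers, none had a called member, against 0.21% of all genes tested. Some lists had few or no tested members, such as T and NK cells (0), B cells (1) and neutrophils (2). The absence of calls therefore cannot show that the cell types were equal between the groups. Library PHx48 3 stood apart, with a summed FPKM of 15 skeletal muscle markers of 691 against at most 6.98 in the other PHx48 libraries, and of 14 exocrine pancreas markers of 184 against at most 16.4. PHx48_ETO 4 had a muscle sum of 108 against at most 17.0 in the other PHx48_ETO libraries, and its 14 Kupffer cell and macrophage markers summed to 299 against at most 158. The number of called genes is given below with and without these libraries, and single genes are given both ways only in part.

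Few genes passed the test with etomoxir, among them the oxidation genes Cyp4a14, Ehhadh and Acadm, which were higher, and the lipid synthesis genes Scd1, Acly and Acacb and the urea cycle gene Ass1, which were lower. Of 12376 genes tested, all with 4 or more libraries at an FPKM of 1 or higher, 26 (0.21%) passed an adjusted p of 0.05 in the edgeR quasi-likelihood test, referred to below as called. Of these, 16 were higher (0.129%) and 10 lower (0.0808%) with etomoxir, and 7 and 6 of them differed by at least 2-fold. In the lists below, genes said to have risen or fallen are called genes. An unadjusted p under 0.05 was reached by 1004 genes (8.11%). The 4 PHx48_ETO libraries lay wholly above the 7 PHx48 libraries in 156 genes (1.26%) and wholly below them in 119 (0.962%), among them 23 of the 26 called genes. The exceptions were Acacb, Gnmt and Il11ra1. Of the called genes, 20 belonged to a pathway list.

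The direction of the 26 genes was the same in each of 20 alternative fits, but their number depended on single libraries. Without PHx48 1 to 7 in turn, 12, 18, 13, 25, 16, 14 and 7 genes were called. Without PHx48_ETO 1 to 4 in turn, the numbers were 3, 13, 1 and 15, Retsat being the gene left without PHx48_ETO 3. Without both libraries with muscle transcripts (PHx48 3 and PHx48_ETO 4), 4 genes were called, namely Gnmt, Mfsd13a, Ass1 and Chrna4. Without PHx48 3 alone, the adjusted p was 0.0752 for Ehhadh, 0.0628 for Acadm and Hadhb, and 0.0659 for Vnn1, Mgll and Slc25a20. For 13 of the 26 genes, Retsat, Ech1 and Ass1 among them, it stayed below 0.05.

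**Figure D1:**
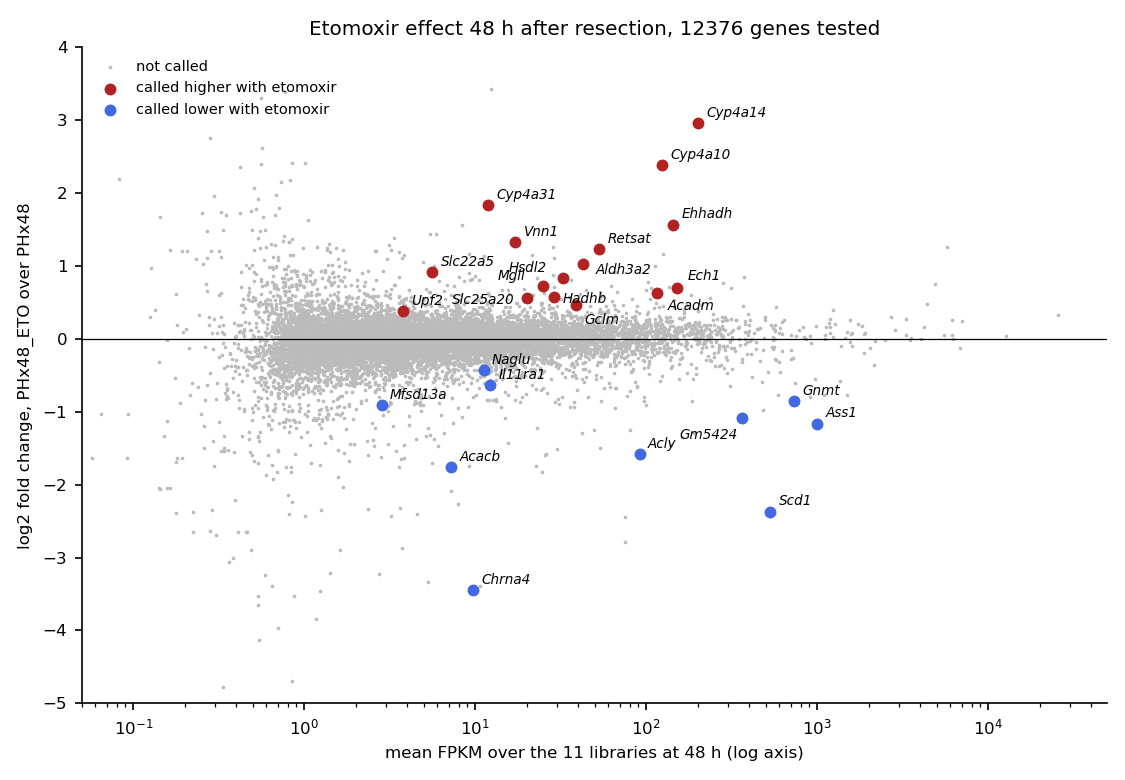
Each point is a gene, with its mean FPKM over the 11 libraries at 48 h on a log axis and its log2 fold change with etomoxir on the vertical axis; 11 genes lie outside the axes. The 16 genes called higher (red) reach a log2 fold change of 2.96 (Cyp4a14) and the 10 called lower (blue) reach -3.45 (Chrna4).

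The largest rises among the called genes were in the Cyp4a genes, the microsomal enzymes of fatty acid omega-hydroxylation. Of 10 members tested, 3 rose (Cyp4a14, Cyp4a10 and Cyp4a31) and none fell, against 0.129% called higher and 0.0808% called lower over all genes tested. The log2 fold change was positive in 6 members and negative in 4, with a median of 0.53 against -0.01 over all genes tested. The 3 genes lie beside each other on chromosome 4, from 115486200 to 115579015. Cyp4a14 had FPKM values of 365, 252, 596 and 595 in the etomoxir libraries, and its PHx48 libraries ran from 21.0 over a median of 57.1 to 122. The lowest etomoxir library was thus well above the highest untreated one. The log2 fold change was 2.96 ± 0.62 (SE), a 7.77-fold rise (adjusted p = 0.037, edgeR quasi-likelihood test).

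Cyp4a10 stood at 194, 177, 301 and 344 with etomoxir and at 24.9 to 81.1 (median 46.4) without it. Its log2 fold change was 2.38 ± 0.49 (SE, adjusted p = 0.0308). Cyp4a31, a less abundant member, stood at 24.8, 17.2, 22.7 and 23.6 with etomoxir and at 4.47 to 9.85 (median 5.70) without it. It rose by 1.83 ± 0.34 on the log2 scale (adjusted p = 0.0165). For all 3 genes the groups did not overlap. Cyp4a32, the next gene of the family by fold, had 15.8, 11.8, 9.85 and 19.3 against 3.12 to 9.29, and its log2 fold change of 1.16 did not pass the test (adjusted p = 0.172). Cyp4a10 shares 15% of its 50-base words with Cyp4a31 and 24.5% with Cyp4a32, so reads may be split between these genes, while it shares none with Cyp4a14. Cyp4a14 and Cyp4a10 were called in 7 of the 20 alternative fits each and Cyp4a31 in 16. Cyp4a14 and Cyp4a10 kept their call only without PHx48 6 among the fits that left out 1 library, with adjusted p up to 0.187 and 0.199 over all alternatives.

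Peroxisomal oxidation shortens very long and dicarboxylic fatty acids, the products of omega-hydroxylation. Of 33 peroxisomal genes tested, 2 rose (Ehhadh and Ech1) and none fell, against 0.129% called higher and 0.0808% called lower over all genes. The log2 fold change was positive in 25 and negative in 8, with a median of 0.11. Over all 12376 genes tested it was positive in 5898 and negative in 6476. Ehhadh, the bifunctional hydratase and dehydrogenase of the peroxisomal cycle (chromosome 16, 21761287 to 21787807), stood at 259, 172, 295 and 264 FPKM with etomoxir against 49.98 to 123 (median 82.7) without. It rose 2.96-fold (log2 1.56 ± 0.32 SE, adjusted p = 0.0305), with no overlap between the groups. Ech1, an isomerase that handles unsaturated chains, had 157, 176, 240 and 231 against 98.9 to 154 (median 124). The gap between the groups was narrow, and the log2 fold change was 0.69 ± 0.12 (SE, adjusted p = 0.0144). Pex11a, a factor of peroxisome division, and Abcd2, a peroxisomal fatty acid transporter, were higher in every etomoxir library than in any PHx48 library without passing the test, at log2 fold changes of 0.61 (adjusted p = 0.554) and 1.11 (adjusted p = 0.316). Hsdl2, a short-chain dehydrogenase found in peroxisomes that is on no list, rose to 48.7, 37.3, 51.7 and 43.4 against 18.9 to 30.3 (median 26.6; log2 0.83 ± 0.15 SE, adjusted p = 0.0154). Ehhadh was called in 9 of the 20 alternatives, Ech1 in 16 and Hsdl2 in 17.

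In the mitochondrial beta-oxidation list, 2 of 21 genes rose (Acadm and Hadhb) and none fell, against 0.129% called higher over all genes tested. A positive log2 fold change was found in 16, against 5898 of all 12376 genes, and the median was 0.27. Acadm, the medium-chain acyl-CoA dehydrogenase, stood at 146, 130, 175 and 148 FPKM with etomoxir against 87.7 to 107 (median 98.6), a change of 0.62 ± 0.12 on the log2 scale (SE; adjusted p = 0.0302). Hadhb, the thiolase subunit of the trifunctional protein, had 38.1, 29.8, 41.6 and 37.6 with etomoxir. The 7 PHx48 values of Hadhb lay close together, from 24.2 to 25.6. The log2 fold change was 0.57 ± 0.12 (SE, adjusted p = 0.0302). The partner subunit Hadha and the long-chain dehydrogenase Acadl also showed no overlap between the groups, but their log2 fold changes of 0.45 and 0.43 missed the threshold (adjusted p = 0.1 and 0.13). Acadm was called in 11 of the 20 alternatives and Hadhb in 8.

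Among 22 genes of the carnitine shuttle and acyl-CoA synthesis, 2 rose and none fell, against 0.129% called higher over all genes. The log2 fold change was positive in 12 and negative in 10, with a median of 0.02. Slc22a5, the plasma membrane carnitine carrier, had 10.5, 7.24, 7.03 and 7.09 FPKM with etomoxir against 2.94 to 5.42 (median 4.32), and rose by 0.91 ± 0.17 on the log2 scale (adjusted p = 0.0231). The first of these libraries was far above the other 3, and without it the adjusted p was 0.126. Slc25a20, which exchanges acylcarnitine for carnitine across the inner mitochondrial membrane, had 22.7, 21.95, 28.4 and 27.6 against 13.03 to 21.3 (median 16.3; log2 0.56 ± 0.11 SE, adjusted p = 0.0305). Slc22a5 was called in 16 of the 20 alternatives and Slc25a20 in 8. Cpt1a, the liver form of the enzyme that etomoxir inhibits, stood at 93.0, 66.9, 51.8 and 59.1 against 37.9 to 53.4 (median 46.5). The groups overlapped in 1 etomoxir library, and the log2 fold change of 0.55 (95% interval 0.21 to 0.90) did not pass the test (adjusted p = 0.302). Cpt2, the inner membrane partner of Cpt1a, had a log2 fold change of 0.31 (95% interval 0.05 to 0.56, adjusted p = 0.52).

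Other known PPARA targets formed a list of 36 tested genes, of which 4 rose (Retsat, Aldh3a2, Vnn1 and Mgll) and none fell. In this list 30 genes had a positive log2 fold change and the median was 0.53. The share called higher over all genes tested was 0.129%, and 5898 of 12376 had a positive log2 fold change. Retsat, the retinol saturase, had the smallest p of all genes called higher. It stood at 81.2, 67.3, 85.2 and 102 FPKM with etomoxir and at 25.9 to 46.1 (median 36.3) without, a 2.35-fold rise (log2 1.23 ± 0.19 SE, adjusted p = 0.00795). It was called in 19 of the 20 alternatives, and its adjusted p was 0.0526 without both libraries with muscle transcripts. Aldh3a2, which oxidises fatty aldehydes to fatty acids, had 68.0, 57.8, 62.4 and 66.0 against 21.3 to 38.7 (median 30.7; log2 1.03 ± 0.19 SE, adjusted p = 0.0165; called in 17 of 20).

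Vnn1, a pantetheinase on the hepatocyte surface, had 23.1, 28.8, 28.2 and 31.2 FPKM against 9.14 to 14.6 (median 11.1), a change of 1.32 ± 0.27 on the log2 scale (SE; adjusted p = 0.0302). Mgll, the monoacylglycerol lipase, had 34.7, 30.7, 35.9 and 32.4 against 18.3 to 23.8 (median 19.7; log2 0.72 ± 0.15 SE, adjusted p = 0.0302). Both groups were tight and apart in Vnn1 and Mgll, which were called in 8 of the 20 alternatives each. Angptl4, a secreted inhibitor of lipoprotein lipase, had 53.8, 35.8, 40.8 and 50.7 against 6.64 to 34.2. Its log2 fold change of 1.26 did not pass the test (adjusted p = 0.246), although the groups did not overlap. The receptor gene Ppara itself spread widely with etomoxir, at 19.3, 10.7, 5.98 and 11.995 against 6.74 to 11.8 (log2 0.38, 95% interval -0.09 to 0.85, adjusted p = 0.722). Fgf21, a hepatic hormone, was low, with 1.28, 0.662, 1.36 and 0.722 against 0 to 0.987 (adjusted p = 0.706), and Pdk4, an inhibitor of pyruvate oxidation, had 23.7, 5.36, 18.6 and 5.33 against 4.31 to 12.5 (adjusted p = 0.864). Cd36 and Fabp1, which take up and carry fatty acids, had log2 fold changes of 1.13 (adjusted p = 0.593) and 0.75 (adjusted p = 0.231).

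No gene of ketone body synthesis passed the test among 8, although 7 had a positive log2 fold change and the median was 0.45. Of 10 acyl-CoA thioesterases, none was called, while 4 lay wholly above the PHx48 libraries (Acot1, Acot2, Acot4 and Acot12) and Acot11 wholly below. Over all genes tested, 1.26% lay wholly above and 0.962% wholly below. Acot1 had 45.1, 24.3, 36.5 and 26.5 against 9.90 to 18.7 (log2 1.15, adjusted p = 0.219), and Acot2 had 15.2, 11.6, 19.5 and 11.3 against 3.16 to 7.17 (log2 1.56, adjusted p = 0.29). With the 11 libraries only, Acot1 and Acot2 passed the test, at adjusted p of 0.0127 and 0.00385. Acot1 was called in 2 of the 20 alternatives, and Acot2 in 1 of the 19 that gave it an adjusted p. Over all alternatives their adjusted p reached 0.491 and 0.562.

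**Figure D2:**
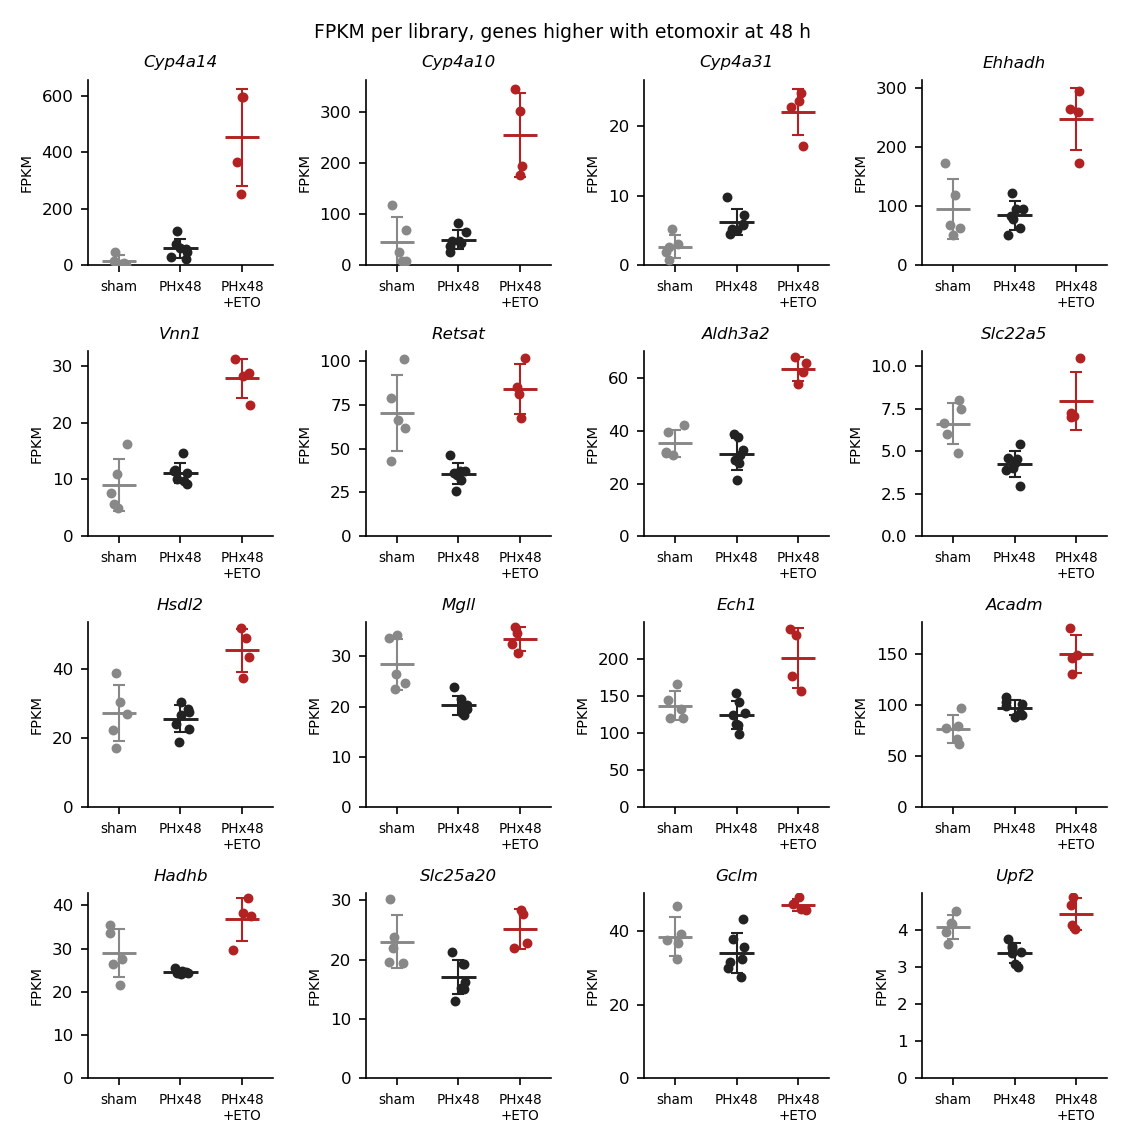
FPKM (vertical axes, from 0) of the 16 genes called higher with etomoxir, in sham, PHx48 and PHx48_ETO libraries; points are libraries, long bars are means and thin bars with caps are ± 1 SD. In each panel every PHx48_ETO point lies above every PHx48 point, with Cyp4a14 at 252 to 596 against 21.0 to 122.

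Of 29 genes of fatty acid and triglyceride synthesis tested, 3 fell (Scd1, Acly and Acacb) and none rose. A negative log2 fold change was found in 25, and the median was -0.41. Among all 12376 genes tested, 0.0808% were called lower and 6476 had a negative log2 fold change. Scd1, the stearoyl-CoA desaturase (chromosome 19, 44394451 to 44407709), stood at 97.3, 84.7, 130 and 271 FPKM with etomoxir and at 315 to 1346 (median 724) without it. The highest etomoxir library was below the lowest PHx48 library, and the gene was 5.18-fold lower (log2 -2.37 ± 0.48 SE, adjusted p = 0.0302). Acly, which makes cytosolic acetyl-CoA from citrate, had 42.5, 29.1, 48.3 and 41.7 against 55.4 to 288 (median 93.0; log2 -1.58 ± 0.31 SE, adjusted p = 0.0302). Acacb, the acetyl-CoA carboxylase whose product malonyl-CoA inhibits carnitine palmitoyltransferase 1, had 2.90, 2.43, 2.38 and 3.76 against 3.05 to 16.8 (median 8.52). It was 3.39-fold lower (adjusted p = 0.0237), and 1 etomoxir library lay within the PHx48 range. Scd1, Acly and Acacb were called in 10, 11 and 13 of the 20 alternatives, with adjusted p up to 0.155, 0.152 and 0.142.

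Fasn, the fatty acid synthase, and Thrsp, a lipogenic regulator, were just outside the threshold, both at an adjusted p of 0.0589. Fasn had 21.0, 19.1, 39.7 and 20.2 against 33.1 to 126 (log2 -1.50), and Thrsp had 10.1, 10.5, 20.9 and 36.8 against 40.1 to 237 (log2 -2.44). Srebf1, the gene of SREBP-1c, had 53.6, 47.7, 55.5 and 37.4 against 56.6 to 110, without overlap, and missed the test (log2 -0.67, adjusted p = 0.613). Within PHx48 these genes shared their extreme libraries: library 5 was the highest for Scd1, Acly, Acacb and Fasn, and library 4 the lowest for all of them. Library 5 and library 4 were not the ones with muscle transcripts. Of the adipocyte markers, PHx48 3 had Adipoq at 7.69, Plin1 at 3.58 and Cfd at 107 FPKM, while in the other 10 libraries Adipoq was at most 0.460, Plin1 at most 0.0421 and Cfd at most 3.02. The sum of the 9 adipocyte list genes found in the table, mostly Car3, which hepatocytes express too, was 123 to 502 in PHx48 and 213 to 596 in PHx48_ETO. Without PHx48 3 the log2 fold changes were about as large, at -2.31 for Scd1 (adjusted p = 0.0628), -1.63 for Acly (adjusted p = 0.036) and -1.78 for Acacb (adjusted p = 0.0352).

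Storage of fat showed no called gene besides Mgll among 23 lipid droplet genes, against 0.21% called over all genes tested. Plin2, the main droplet coat protein of hepatocytes, had 279, 225, 258 and 177 FPKM with etomoxir against 127 to 230 (median 139; log2 0.60, 95% interval -0.16 to 1.36, adjusted p = 0.725). Cidec, which enlarges droplets, had 8.72, 8.90, 7.84 and 3.09 against 0.767 to 14.8, the highest value being that of PHx48 3 (adjusted p = 0.892). Pnpla3, a lipase regulated by feeding, was wholly lower with etomoxir, at 0.821, 0.576, 1.30 and 0.282 against 1.96 to 14.4 (log2 -2.87, adjusted p = 0.17).

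Of 46 genes of the urea cycle and amino acid catabolism, 2 fell (Ass1 and Gnmt) and none rose, against 0.0808% called lower over all genes. A negative log2 fold change was found in 35, against 6476 of all 12376 genes, and the median was -0.28. Ass1, the urea cycle enzyme argininosuccinate synthase (chromosome 2, 31470207 to 31520672), had 585, 433, 489.9 and 721 FPKM with etomoxir and 947 to 1664 without. The groups did not overlap, and Ass1 was 2.24-fold lower (log2 -1.16 ± 0.21 SE, adjusted p = 0.0154; called in 17 of 20 alternatives). Gm5424, a processed pseudogene on chromosome 10 that holds 76.5% of its 50-base words in common with Ass1, fell by 1.09 on the log2 scale (adjusted p = 0.0302). Reads in the shared part may come from either gene, so Gm5424 cannot be taken as an independent observation.

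Gnmt, the glycine N-methyltransferase that uses up S-adenosylmethionine, had 417, 377, 489.7 and 641 FPKM with etomoxir against 614 to 1344 (median 819). The ranges touched, and the log2 fold change was -0.86 ± 0.18 (SE, adjusted p = 0.039; called in 8 of 20 alternatives). Got1, the cytosolic aspartate aminotransferase, was just outside the threshold, with 43.1, 36.5, 38.8 and 53.01 against 72.9 to 148 (log2 -1.25, adjusted p = 0.0512). Other urea cycle genes missed the test, with log2 fold changes of -0.77 for Cps1 (adjusted p = 0.172), -0.68 for Asl (adjusted p = 0.405), -0.46 for Arg1 (adjusted p = 0.742) and 0.06 for Otc (adjusted p = 0.965). Among 21 genes that mark periportal hepatocytes, 1 fell, which was Ass1, against 0.0808% called lower over all genes tested. Their median was -0.46. Among 25 pericentral genes none was called and the median was -0.11.

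**Figure D3:**
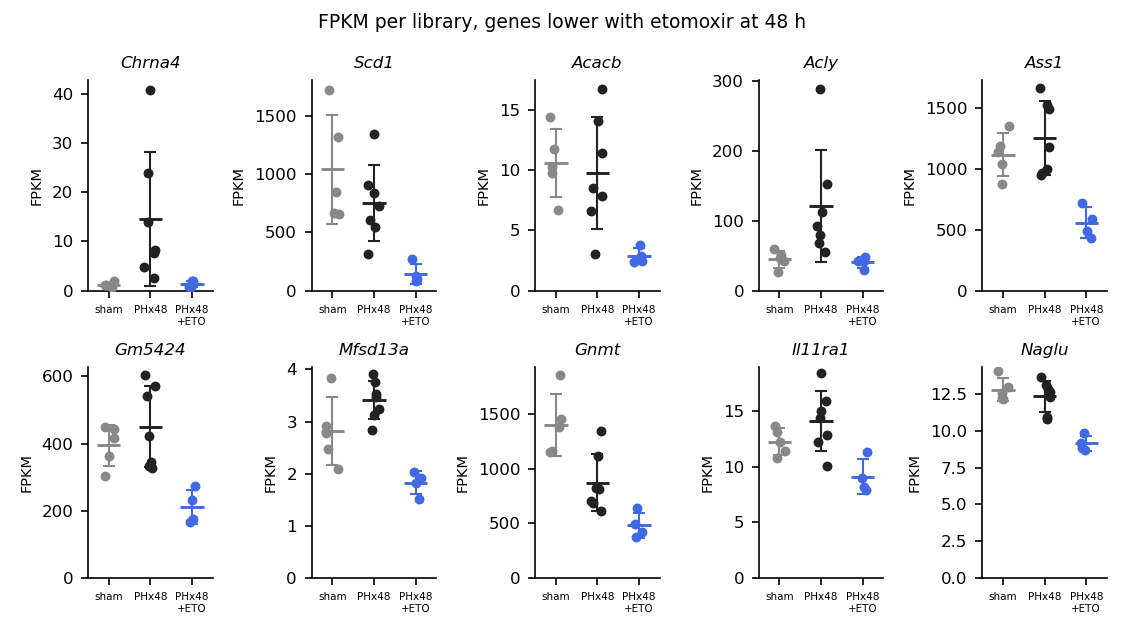
FPKM (vertical axes, from 0) of the 10 genes called lower with etomoxir, in sham, PHx48 and PHx48_ETO libraries; points are libraries, long bars are means and thin bars with caps are ± 1 SD. PHx48_ETO points lie below all PHx48 points except in Acacb, Gnmt and Il11ra1, and Scd1 stands at 84.7 to 271 against 315 to 1346.

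Chrna4, a subunit of neuronal nicotinic acetylcholine receptors that is on no list, had the largest fall among the called genes. It had 0.769, 0.815, 1.88 and 1.89 FPKM with etomoxir and 8.18, 4.88, 7.71, 2.65, 40.8, 24.0 and 13.9 in PHx48 1 to 7. It was 10.9-fold lower (log2 -3.45 ± 0.57 SE, adjusted p = 0.00932; called in 17 of 20 alternatives). As for the lipogenic genes, PHx48 5 was its highest and PHx48 4 its lowest untreated library. In sham livers it stood at 1.19 ± 0.422 (SD, n = 5), near the etomoxir level.

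The remaining called genes were single members of other groups. For comparison, 0.129% of all genes tested were called higher and 0.0808% lower. Gclm, the modifier subunit of the enzyme that starts glutathione synthesis, had 46.0, 47.2, 49.1 and 45.7 FPKM with etomoxir against 27.6 to 43.3 and was the only called gene among 28 NRF2 targets (log2 0.46 ± 0.10 SE, adjusted p = 0.0409). Its partner Gclc had 130, 151, 158 and 125 against 63.9 to 124 without passing the test (adjusted p = 0.593). Naglu, a lysosomal enzyme of heparan sulfate breakdown, had 9.87, 8.70, 8.86 and 9.18 with etomoxir against 10.8 to 13.7. It fell by 0.43 on the log2 scale (adjusted p = 0.0302) and was the only gene called among 28 lysosome and autophagy genes. Gclm was called in 6 and Naglu in 7 of the 20 alternatives.

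Upf2, Mfsd13a and Il11ra1 met no naming rule and were singled out after their values were seen, to complete the list of called genes. Upf2, a factor of nonsense-mediated decay, rose by 0.38 on the log2 scale (adjusted p = 0.0323). Mfsd13a had 2.04, 1.81, 1.52 and 1.91 FPKM against 2.85 to 3.92 (log2 -0.91 ± 0.14 SE, adjusted p = 0.00795) and was called in 18 of the 19 alternatives that gave it an adjusted p. Il11ra1, the interleukin-11 receptor alpha chain, fell by 0.63 on the log2 scale (adjusted p = 0.039). However, it overlaps other genes in the annotation, among them Ccl27a, Dctn3, Galt and Rpp25l, and may share reads with them. Besides Fasn, Thrsp and Got1, Kdsr and Chrna2 were just outside the threshold, both higher with etomoxir and without overlap. Their log2 fold changes were 0.60 (adjusted p = 0.0512) and 1.24 (adjusted p = 0.0589).

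**Figure D4:**
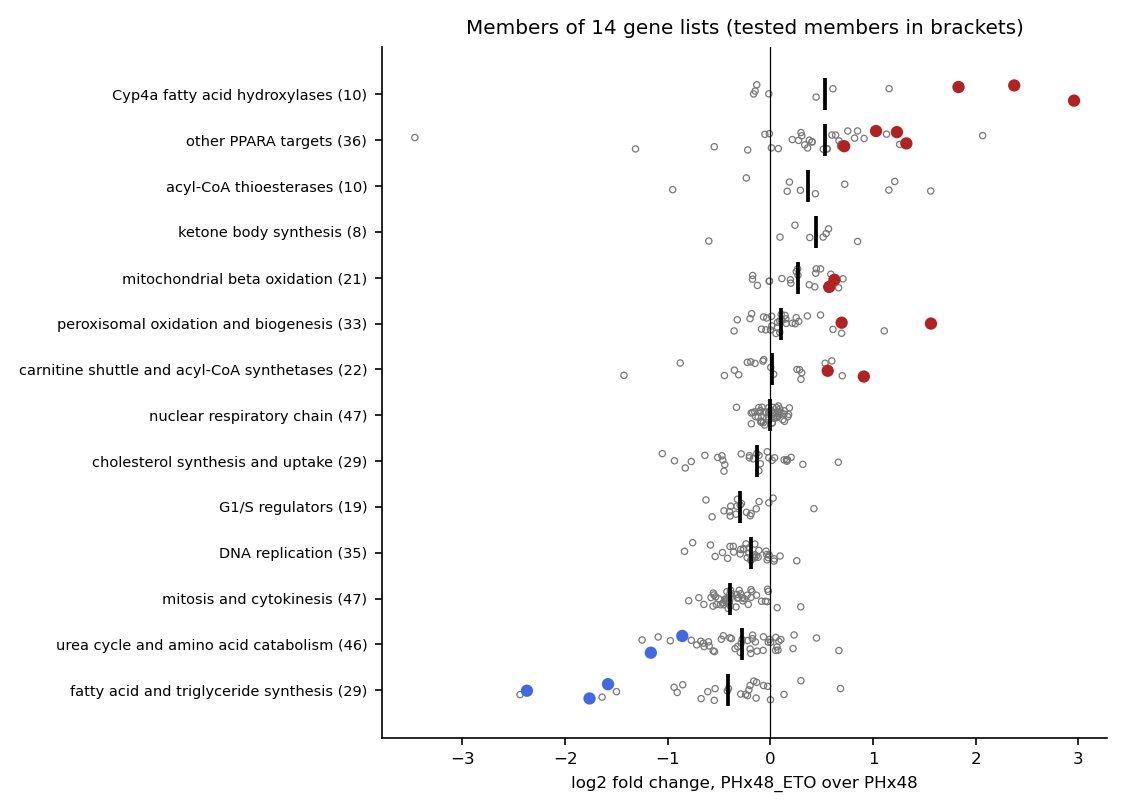
Log2 fold change with etomoxir at 48 h (horizontal axis) of the tested members of 14 gene lists; filled points are called genes (red higher, blue lower), open points are not called and black bars are list medians. The medians run from -0.41 for fatty acid and triglyceride synthesis to 0.53 for other PPARA targets, and no member of the 3 proliferation lists is called.

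No proliferation gene was called at 48 h. Of 47 genes of mitosis and cytokinesis 45 had a negative log2 fold change, as had 31 of 35 genes of DNA replication and 17 of 19 G1/S regulators, with medians of -0.39, -0.19 and -0.29 against -0.01 over all genes. The genes of a list are measured in the same libraries, so the count of signs is no test. The wide intervals of single genes leave room for a fall or a rise: Mki67, a marker of cycling cells, had 11.1, 12.2, 17.4 and 11.5 FPKM with etomoxir against 8.96 to 19.8 (median 13.3), a log2 fold change of -0.05 with a 95% interval of -1.21 to 1.11. Ccnb1, the mitotic cyclin B1, had 17.2, 15.9, 26.8 and 9.10 against 13.4 to 32.5 (log2 -0.22, 95% interval -1.39 to 0.96). Mcm2, a subunit of the replicative helicase, had 4.19, 3.22, 5.91 and 3.29 against 3.46 to 5.72 (log2 -0.21, 95% interval -0.91 to 0.49). Ccnd1, the G1 cyclin D1, had 41.9, 23.8, 24.7 and 12.2 against 16.5 to 46.9 (log2 -0.34, 95% interval -1.01 to 0.34). For these 4 genes the adjusted p was between 0.855 and 0.991, and in each the groups overlapped. Cdc25b, the gene of smallest p on the mitosis list, had 1.86, 1.75, 1.37 and 1.47 against 1.96 to 3.95 (log2 -0.70, adjusted p = 0.495). Ccnf, the gene of cyclin F, is on none of these proliferation lists and was singled out after its values were seen. Its etomoxir libraries, at 9.34 to 10.015, lay wholly below the PHx48 libraries, at 10.7 to 18.4. Its log2 fold change of -0.61 did not pass the test (adjusted p = 0.122). The cell cycle inhibitor Cdkn1a had a log2 fold change of -0.13 (95% interval -0.77 to 0.52).

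The other lists had no called gene. Cholesterol synthesis and uptake had a median log2 fold change of -0.13 over 29 genes, the citric acid cycle -0.04 over 23, the nuclear-encoded respiratory chain -0.004 over 47 and the acute phase 0.002 over 31. Among 13 mitochondrially encoded genes, mt-Nd2, a complex I subunit, had 5601, 5865, 4591 and 5362 FPKM with etomoxir against 3128 to 4450 (log2 0.48, adjusted p = 0.159). Ppard, a PPAR of other tissues as well as liver, had 1.75, 1.09, 2.29 and 1.09 against 1.199 to 7.39 (log2 -1.54, adjusted p = 0.172). Iigp1, an interferon-induced GTPase, had 78.6, 96.6, 87.1 and 90.3 against 38.2 to 67.1 (log2 0.64, adjusted p = 0.317). Vegfa, a growth factor for endothelial cells, had 27.2, 28.01, 24.8 and 23.3 against 26.1 to 47.9 (log2 -0.48, adjusted p = 0.302). In mt-Nd2 and Iigp1 the groups did not overlap. They did overlap in the markers of liver function and stress fixed for description, with adjusted p of 0.774 for Alb, 0.9 for Lcn2, 0.785 for Saa1, 0.96 for Gdf15, 0.993 for Cyp2b10 and 0.988 for Cyp7a1.

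At 24 h the etomoxir comparison, which shares no library with that at 48 h, had 359 called genes (2.9%). Of the 26 genes called at 48 h, 6 were called at 24 h too and in the same direction (Retsat, Slc22a5, Slc25a20, Ass1, Gm5424 and Gnmt), 23.1% of the 48-h genes and 1.67% of the 24-h genes. Of the 26, 24 had the same sign at 24 h and 25 were further from 0 at 48 h, the time at which they were picked out. The log2 fold changes at 24 and 48 h were close for Retsat (1.25 and 1.23), Slc22a5 (0.78 and 0.91), Slc25a20 (0.51 and 0.56), Ass1 (-0.98 and -1.16) and Gnmt (-0.70 and -0.86). They were further apart for Cyp4a14 (1.08 and 2.96), Cyp4a10 (0.58 and 2.38), Aldh3a2 (0.13 and 1.03) and Scd1 (-0.66 and -2.37). The same held for Acly (-0.04 and -1.58), Acacb (0.02 and -1.76) and Chrna4 (-0.97 and -3.45). Chrna4 was near the floor at 24 h, with mean FPKM of 0.333 in PHx24 and 0.172 in PHx24_ETO. Srebf1, not called at 48 h, was called lower at 24 h (-1.44, adjusted p = 0.0208, and -0.67). Thrsp (-1.17 and -2.44) and Fasn (0.09 and -1.50) were called at neither time. None of the 26 passed the test of the difference between the times, with a smallest adjusted p of 0.215 (Acacb), while 14 reached an unadjusted p under 0.05. A difference between 24 and 48 h was therefore not shown for these genes with all libraries in the fit.

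**Figure D5:**
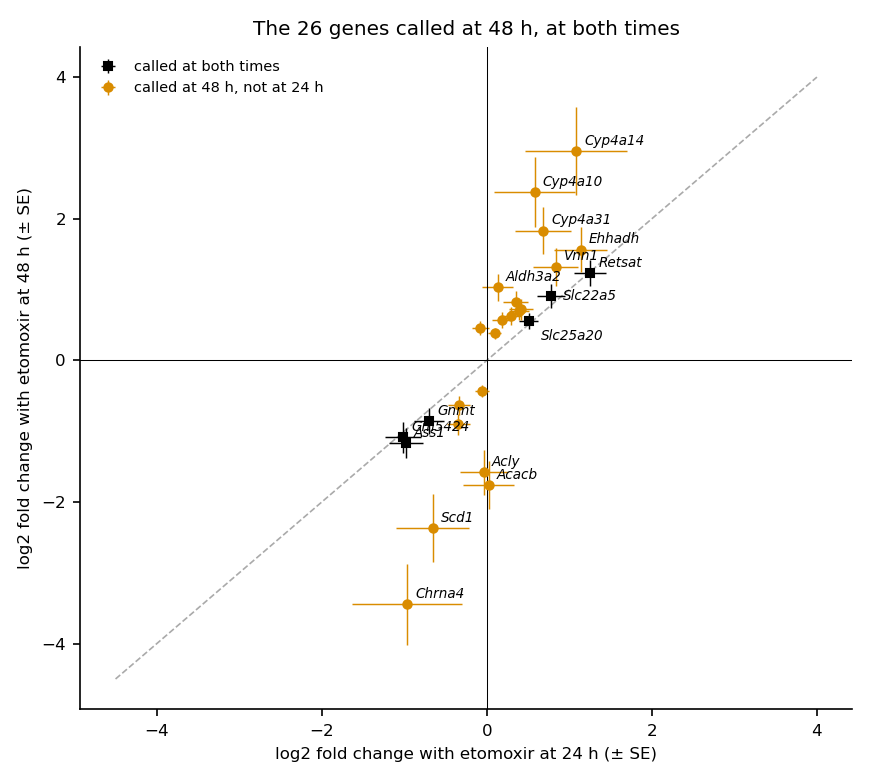
Log2 fold change with etomoxir at 24 h (horizontal) and 48 h (vertical) of the 26 genes called at 48 h, with bars of ± 1 SE and a dashed line of equal values. The 6 genes called at both times (black squares) lie near the line, and Acly and Acacb lie near 0 at 24 h and at -1.58 and -1.76 at 48 h.

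The test of the difference called 2 genes (0.0162%), Cyp3a11 and Cyp3a59, both cytochromes P450 of the family that oxidises many drugs and steroids. Cyp3a11 had 1156, 888, 1056 and 1163 FPKM with etomoxir at 48 h against 573 to 1176 (log2 0.17, adjusted p = 0.894), whereas at 24 h it was lower with etomoxir by 1.72 on the log2 scale, which gave a log2 difference of 1.89 ± 0.31 (SE, adjusted p = 0.0121). Cyp3a59 had 39.8, 26.5, 20.1 and 28.04 at 48 h against 16.9 to 26.8 (log2 0.39), and its difference was 1.77 ± 0.28 (SE, adjusted p = 0.0116). Both overlapped between the groups at 48 h. Without PHx24_ETO 4 neither passed the test, at adjusted p of 0.0763 and 0.0724. Without PHx24_ETO 1 the difference called 239 genes, or 1.93% of those tested, 177 higher and 62 lower at 48 h. They included 36 of the 47 mitosis genes, 10 of 43 conjugating enzymes and 6 of 39 P450 genes, all higher. Also higher were 4 of 23 nucleotide synthesis genes, 4 of 28 NRF2 targets and 3 of 35 DNA replication genes. Lower were 6 of 29 cholesterol, 5 of 31 acute phase and 2 of 29 fatty acid synthesis genes. With PHx24_ETO 1 in the fit, 2 P450 genes and 0 in the other lists named here were called. Of the 26 genes called at 48 h, 2 were among the 239, Aldh3a2 (log2 difference 1.2, adjusted p = 0.00939) and Acacb (-1.92, adjusted p = 0.0269). Without PHx24_ETO 2 to 4 in turn, the difference called 2, 2 and 0 genes. The median effect on the mitosis list was -1.66 at 24 h, with 10 genes called lower, and -0.39 at 48 h. Of all 12376 genes tested, 164 were called lower at 24 h and 10 at 48 h.

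Levels in sham livers, set beside those at 48 h with no test, placed the groups differently for different genes. All 16 genes that rose had a PHx48_ETO mean above the sham mean, and for 11 of them the PHx48 mean was below it. Retsat had a mean FPKM of 70.3 ± 21.6 (SD, n = 5) in sham livers. It was 35.7 ± 6.10 (SD, n = 7) at 48 h and 83.9 ± 14.3 (SD, n = 4) with etomoxir. Cyp4a14 was at 14.7 ± 19.2, 58.3 ± 33.5 and 452 ± 172 in the same order. In 6 of the 16 genes every PHx48_ETO library was above every sham library, against 11.8% of all genes tested. Of the 10 genes that fell, 7 had every PHx48_ETO library below every sham library, against 10.3% of all genes tested. The 26 genes were picked out with the same PHx48_ETO libraries, so these shares are a description. Ass1 was at 1115 ± 175 in sham, 1251 ± 301 in PHx48 and 557 ± 126 in PHx48_ETO, and Scd1 at 1042 ± 466.4, 754 ± 326 and 146 ± 85.8.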

How the data were processed

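PolyA RNA of mouse liver was sequenced from NEBNext Ultra libraries, per the labels' protocols. Per the submitters' processing notes, the tools were DESeq2 1.20.0, featureCounts 1.5.0-p3, HISAT2 2.0.5, CASAVA 1.8 and fastp, and the builds GRCm38 and mm10. The step each tool served is not given in the sources used here, nor are the annotation and any use of strand. Overlapping genes may therefore share reads. The deposited table holds raw read counts and gene lengths for 54532 genes, and FPKM values that the authors computed from them. Tested on the table, FPKM used a library size proportional to the median-of-ratios factor (16.512 per unit), and so are scaled to a typical gene. Coordinates are those of the table, on GRCm38.

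Groups and replicate numbers came from the labels. Counts of the 27 libraries were fitted in 5 groups with the quasi-likelihood F test of edgeR (version 4.0.16, R version 4.3.3) after TMM scaling. The 12376 genes tested reached an FPKM of 1 or more in 4 or more libraries. Adjusted p-values are by Benjamini-Hochberg over these genes, are from edgeR where no other tool is named, and make a call below 0.05. The biological coefficient of variation was 0.266. The fit was tested on simulated data. Replicate numbers were not taken as pairs. SEs were derived from the log2 fold change and its F statistic.

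The comparison and its 45 pathway and 15 marker lists were chosen with earlier results of these data known. Genes named are: the 12 highest and 12 lowest fold changes among called protein-coding genes with a group mean FPKM of at least 5 and no overlap between the groups; per list the 2 called members of smallest p per direction or, with none called, the member of smallest p; a fixed list of markers; and the genes of smallest p in the difference between times. Genes just outside the threshold and list members whose groups do not overlap were added after their values were seen. A few genes that these rules name are not reported here. Shared 50-base words were counted in GENCODE M21 transcripts. Alternatives were RLE factors, total counts, DESeq2 1.42.0, no filter, limma 3.58.1 on log2(FPKM + 1) and log2(FPKM + 0.1), a replicate block, the 11 libraries alone, no libraries with muscle transcripts, and each library left out.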

Additional observations from a re-analysis of the deposited data

Results flagged for a closer look

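Of 134 sets of values checked within a group at 48 h, 13 had a library far from the others, where chance flags about 1 in 20. PHx48 3 was highest for the summed FPKM of skeletal muscle markers (691), exocrine pancreas markers (184) and neutrophil markers (7.85), and for Cidec (14.8) and Fgf21 (0.987). PHx48_ETO 4 was highest for skeletal muscle markers (108) and for Kupffer cell and macrophage markers (299). PHx48 5 was far above the other PHx48 libraries in Acly (288), PHx48 4 in Plin2 (230) and PHx48 7 in Cdkn1a (35.7). PHx48_ETO 1 was highest in Slc22a5 (10.5), and PHx48_ETO 3 in Mki67 (17.4) and Lcn2 (260.0), all in FPKM. Slc22a5 and Acly are called genes: Slc22a5 lost its call without PHx48_ETO 1, and Acly kept it without PHx48 5.

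The etomoxir effects at 24 and 48 h differed for Cyp3a59 (log2 difference 1.77) and Cyp3a11 (log2 difference 1.89) by the test of the difference itself. Both genes were lower with etomoxir at 24 h, and neither passed the test at 48 h.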

How the results depend on the processing

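With no filter on low values 6 genes were called higher and 5 lower at 48 h, in place of 16 and 10 (30492 genes tested). DESeq2 called 35 and 36, among them 25 of the 26 genes, and gave Mfsd13a no adjusted p. A fit of the 11 libraries only called 25 and 8 (15 of the 26), and total counts without TMM factors called 14 and 13 (21 of the 26). Without both libraries with muscle transcripts 0 were called higher and 4 lower, with 936 genes at an unadjusted p under 0.05. Leaving out each library in turn gave 1 to 11 higher and 0 to 14 lower genes. All 26 genes kept their direction in every one of these fits, and their log2 fold changes were 0.679 to 1.27 times those reported. For the difference between times DESeq2 called 20 higher and 23 lower, and leaving out each library gave 0 to 177 higher and 0 to 62 lower. The replicate numbers were treated as a name: with a replicate block 32 genes were called higher and 12 lower (19 of the 26). The deviations of same-numbered libraries of both groups correlated at 0.247, 0.18, -0.098 and -0.126. Of the 4 PHx48_ETO libraries, 2 correlated best with their own number. So few values cannot decide whether the numbers pair the samples, and the labels do not say. Some of these fits held fewer libraries or more genes, and the cause of the shifts was not tested. With a biological coefficient of variation of 0.266 and 4 treated libraries, small effects in variable genes may have been missed.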

Other observations

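Cytochromes P450 of families 1 to 3 and the conjugating enzymes of drug metabolism had no called gene at 48 h, with median log2 fold changes of 0.10 over 39 genes and 0.02 over 43. At 24 h the medians were -0.17 and -0.73, with 4 and 12 members called lower, against 164 of all 12376 genes tested. Ugt2b38, a glucuronosyltransferase, had 18.4, 10.8, 10.7 and 6.90 FPKM with etomoxir at 48 h against 4.94 to 8.50, and its log2 difference between the times was 1.78 (adjusted p = 0.215, edgeR). Cholesterol synthesis and uptake had a median of 0.80 at 24 h, with 9 genes called higher, and -0.13 at 48 h with none. Over all genes tested, 195 were called higher at 24 h and 16 at 48 h.

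Extracellular matrix genes had a negative log2 fold change at 48 h in 30 of 31 cases, with a median of -0.18 and none called, and genes of MHC and antigen presentation in 19 of 22, with a median of -0.21 and none called. Over all 12376 genes tested, 6476 were negative. The gene of smallest p in each was Col18a1, a basement membrane collagen (log2 -0.31, adjusted p = 0.538), and H2-Q6, a class I molecule (log2 -0.82, adjusted p = 0.227). Stellate cell and fibroblast markers summed to 73.1 to 153 FPKM in PHx48 and 79.3 to 102 in PHx48_ETO, the highest being PHx48 3. Sinusoidal endothelial markers were negative in 14 of 14 cases, with a median of -0.16 and none called, and summed to 32.9 to 59.9 FPKM in PHx48 and 27.1 to 71.8 in PHx48_ETO, or at most 37.7 without PHx48_ETO 4. The part of either cell type in these values was not tested. Erythroid markers summed to 175 to 1297 FPKM in PHx48 (median 278), the highest being PHx48 2, and to 77.8 to 285 in PHx48_ETO.

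Gapdh, a glycolytic enzyme often used as a reference transcript, stood at 31.8 and 32.5 FPKM in PHx48 3 and PHx48 4 and at 1.89 to 3.46 in the other 9 libraries at 48 h.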
